A study of Mus musculus with 27 samples.

Results

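Tumors grown from cells carrying a guide RNA against Mettl3 were compared with tumors grown from cells carrying a control guide RNA. The comparison used the 5 Mettl3 knockout (KO) and 5 control RNA-seq samples of a series of 27 samples. The members were chosen by label alone, as the columns of these 2 groups in the Mettl3 count table, and every gene in that table was considered. Of 54752 genes, 21427 had enough reads to be tested and 33325 did not.

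The cells were CT26, a transplantable mouse colon carcinoma line. They were transduced with retrovirus for knockout and placed under the skin of BALB/c mice, a strain with a working immune system. Both groups shared the host strain and the antibody schedule, 200 µg (10 mg/kg) per injection from day 11 to day 23. The protocols list anti-PD-1, anti-CTLA-4 and IgG antibodies, and only the series design ties these tumors to anti-PD-1, an antibody that blocks a checkpoint receptor on T cells. The protocols do not say whether the KO cells were 1 clone or a pool, and no label links a sample to an animal. The p-values below therefore measure how far these samples spread, which may be technical. A tumor sample holds cancer cells with an edited gene and host cells with an intact one. In such bulk samples, fewer cells of a type and less RNA per cell cannot be told apart.

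Mettl3 is the catalytic subunit, and Mettl14 the RNA-binding partner, of the enzyme that writes m6A, the methylation of adenosine at its N6 position in messenger RNA. This mark is known to affect splicing, translation and decay of transcripts. Interferon-gamma is a cytokine made mainly by T cells and natural killer cells. It binds a receptor with 2 kinds of chain, activates the Jak kinases and then transcription factors of the Stat family, which bind gamma-activated sites. The factors Irf1 and Irf9 with Stat2 bind a second kind of element, the interferon-stimulated response element. Among the targets of these factors in mice are guanylate-binding proteins, immunity-related GTPases, antigen presentation genes and the chemokines that draw T cells.

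Across all genes, 266 of 21427 changed (1.24% of genes tested, edgeR quasi-likelihood test with Benjamini-Hochberg adjustment at 0.05). Of these, 87 were higher (0.406%) and 179 were lower (0.835%) in Mettl3 KO tumors. Among those that rose were all 11 guanylate-binding proteins and 9 of 10 immunity-related GTPases, both known targets of interferon-gamma. Those that fell were spread over many groups, among them 2 retinoid genes, 3 clock genes, 3 hemoglobin genes and 3 markers of one kind of macrophage. The adjusted p-values of the changed genes lay between 0.00986 and 0.0499, and 1921 genes had a value under 0.06, so many genes stood just past the threshold.

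Levels are given as CPM, the counts of a gene relative to all reads on genes in its library, after scaling between libraries by trimmed mean of M-values (TMM). A log2 change is the fitted log2 fold change of Mettl3 KO over control, with its standard error (SE). Control replicates 1 to 5 had 5.52, 12.5, 13.7, 18.1 and 20.98 M reads on genes, and the Mettl3 KO replicates had 5.21, 9.33, 6.25, 4.35 and 7.70 M reads. Reads outside annotated genes took 44.3% to 53.8% of uniquely aligned reads in control replicates 2 to 5 and 60.2% to 78.0% in Mettl3 KO tumors. Control replicate 1, with 78.6%, stood with the Mettl3 KO libraries in this measure, and also in the summed level of olfactory and vomeronasal receptor genes, which are silent outside sensory tissue (5338 CPM, against 199 to 702 CPM in the other controls and 1375 to 4667 CPM in Mettl3 KO tumors). The share of reads on genes that was mitochondrially encoded was 5.53% ± 2.28 in control and 1.95% ± 0.498 in Mettl3 KO tumors (SD, n = 5; two-sided exact permutation p = 0.00794, adjusted p = 0.0317 over 4 library measures, the smallest that 5 against 5 can give before adjustment). The satellite-like gene model Gm10800 alone took 140550.0, 8494, 4565, 7376 and 349 CPM in the controls and 387630.0, 55434, 281730.0, 141970.0 and 46796 CPM in the Mettl3 KO tumors. What part these library measures have in the results below was not tested, beyond the fits that are given with them.

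Without control replicate 1, 11625 of 22535 genes changed (51.6%), 8162 higher (36.2%) and 3463 lower (15.4%). All 87 genes that rose and all 179 that fell with 10 libraries were called in the same direction there. Since most genes were called in that fit, a call in it is read against those shares. Leaving out any 1 of the other 9 libraries gave 35 to 65 changed genes. With the share of reads outside genes as a covariate, 55 genes changed (0.257%), 38 higher (0.177%) and 17 lower (0.0793%). With 10 libraries, 260 genes (1.21%) were higher in every Mettl3 KO tumor than in any control and 1121 (5.23%) were lower in every one. Of the changed genes, 86 of the 87 higher and 166 of the 179 lower had groups that did not overlap.

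The fold changes depended on how abundant a gene was. The median log2 fold change was 0.90 for the 3246 genes with a mean of 1 to 2 CPM, -0.31 for the 2488 genes at 10 to 20 CPM and -0.60 for the 636 genes at 200 CPM or more, and -0.14 over all genes. In the fit without control replicate 1 the medians of these bins were 2.03, -0.15 and -0.50, and 0.061 over all genes. A fit that levels this trend in every library (limma voom with cyclic loess, called loess scaling below) changes both the scaling and the test, and gave 442 changed genes (2.06%), 327 higher (1.53%) and 115 lower (0.537%). Of the 87 genes that rose, 86 were also called higher after loess scaling, the exception being Calhm6. Of the 179 that fell, 43 were also called lower, and no gene of either set had the opposite sign. With limma voom and TMM scaling 5031 genes changed (23.5%), 2406 higher (11.2%) and 2625 lower (12.3%), so the calls kept or lost after loess scaling cannot be put down to the scaling alone.

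**Figure D1:**
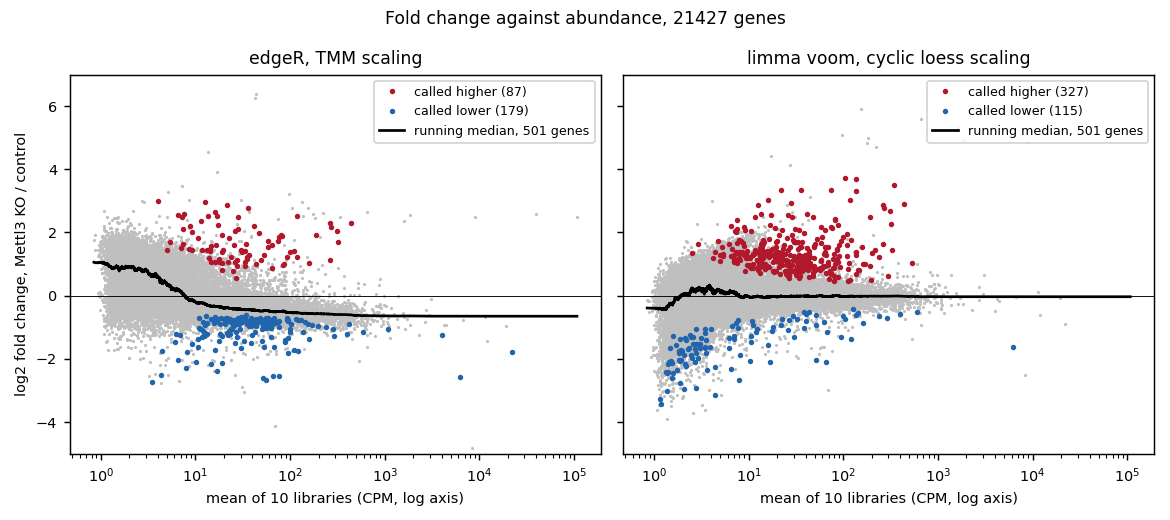
Log2 fold change of Mettl3 KO over control (vertical axis) against mean level in CPM (log axis), 1 point per gene, with TMM scaling on the left and loess scaling on the right. Red points were called higher and blue points lower, and the black line is a running median over genes, which slopes downward on the left and lies near 0 on the right from about 2 CPM.

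Mettl3, the targeted gene, lies on chromosome 14, 52294841 to 52305128 of mm10. Its level was 14.3, 19.4, 20.5, 19.3 and 24.2 CPM in control replicates 1 to 5 and 13.6, 14.4, 12.3, 13.9 and 12.4 CPM in Mettl3 KO replicates 1 to 5. Control replicate 1 lay inside the KO range, and the other 4 controls lay above every KO tumor. The means were 19.5 ± 3.53 and 13.3 ± 0.945 CPM (SD, n = 5), a log2 change -0.56 with SE 0.15, adjusted p = 0.0545 by edgeR, and -0.44 without control replicate 1 (adjusted p = 0.0219). After loess scaling the value was -0.27 (adjusted p = 0.204). A guide RNA alters DNA and can leave a transcript in place, and the host cells carry intact Mettl3, so the RNA level is a weak check of the labels.

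The other genes of the m6A pathway did not pass the test. Mettl14 stood at 71.98, 81.9, 69.4, 58.6 and 65.2 CPM in the controls and 37.9, 62.3, 55.2, 40.9 and 64.9 CPM in the KO tumors (log2 change -0.405 with SE 0.18, adjusted p = 0.141 by edgeR). None of 12 m6A writer genes changed (median log2 fold change -0.46), and none of 17 readers and erasers did (median -0.52). After loess scaling these medians were -0.013 and -0.039. When control replicate 1 was left out, 4 writers and 7 readers or erasers were called lower, beside 15.4% of all genes. In that fit 1 reader or eraser was called higher, beside 36.2% of all genes. Ythdc1, a nuclear reader of the mark, had -0.62 (SE 0.17, adjusted p = 0.0558 by edgeR), and Rbm15, an adaptor of the writer complex, -0.74 (SE 0.24, adjusted p = 0.0703 by edgeR).

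Of 11 tested genes of the interferon-gamma receptor chain, Irf1 and 1 other member rose. Irf1, a transcription factor that interferon-gamma induces, stood at 44.1, 48.1, 95.4, 103 and 65.9 CPM in the controls and 222, 155, 152, 154 and 155 CPM in the Mettl3 KO tumors. The groups did not overlap, and KO replicate 1 was above the other 4 KO tumors, which lay close together. Irf1 had a log2 change 1.23 with SE 0.25, adjusted p = 0.0463 by edgeR, and 1.29 without control replicate 1 (adjusted p = 0.00165). The receptor chains Ifngr1 (-0.25, SE 0.204) and Ifngr2 (-0.28, SE 0.18) and the kinases Jak1 (-0.19, SE 0.204) and Jak2 (0.0085, SE 0.17) did not pass, nor did the feedback inhibitor Socs1 (0.12, SE 0.299). The list's median was 0.0085, beside -0.14 over all genes. Its count was 0 to 2 when any 1 library other than control replicate 1 was left out.

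The guanylate-binding proteins, large GTPases that coat and break the vacuoles of intracellular pathogens, rose as a whole family. All 11 were called higher and all 11 stood above every control in every KO tumor, with a median log2 fold change of 2.04. Gbp2b stood at 127, 141, 187, 216 and 73.96 CPM in the controls and 984, 478, 601, 898 and 695 CPM in the KO tumors. The lowest KO tumor stood well above the highest control (log2 change 2.296 with SE 0.302, adjusted p = 0.0102 by edgeR). Gbp7 went from 153 ± 38.1 to 491 ± 61.9 CPM (log2 change 1.68 with SE 0.200, adjusted p = 0.00986 by edgeR). Gbp10, among the scarcer members, stood at 5.34, 2.56, 3.92, 5.73 and 2.55 CPM in the controls and 37.2, 16.1, 18.9, 27.4 and 16.8 CPM in the KO tumors (log2 change 2.53 with SE 0.32, adjusted p = 0.0102 by edgeR). Gbp3 went from 78.6 ± 24.7 to 301 ± 61.1 CPM (log2 change 1.93 with SE 0.24, adjusted p = 0.0102 by edgeR).

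The other 7 members had log2 fold changes from 1.23 (Gbp9) to 2.499 (Gbp6), and Gbp6 stood at only 2.17 ± 0.73 CPM in the controls. Summed over the family, the controls held 552, 663, 922, 980.3 and 427 CPM and the KO tumors 3571, 2074, 2541, 3306 and 2638 CPM, so the lowest KO tumor was far above the highest control. Control replicate 5 was the lowest library of all. All 11 were also called higher without control replicate 1, beside 36.2% of all genes in that fit, and their median was 2.103. Leaving out any 1 other library gave 8 to 11 called, and the fit with the share of reads outside genes as a covariate gave 7. Reads that match several of these near-identical genes may go uncounted or to the wrong copy, so the split between members and the family sum are both approximate.

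Immunity-related GTPases, which act on the same vacuoles, rose almost as uniformly. Of 10 tested, 9 were called higher and all 10 were above every control in every KO tumor (median log2 fold change 1.76). Irgm2 stood at 19.1, 26.4, 42.2, 46.1 and 25.6 CPM in the controls and 118, 79.4, 89.9, 106 and 87.9 CPM in the KO tumors (log2 change 1.59 with SE 0.24, adjusted p = 0.0186 by edgeR). Iigp1, the most abundant member, went from 97.7 ± 37.2 to 443 ± 154 CPM (log2 change 2.18 with SE 0.31, adjusted p = 0.0127 by edgeR). Gm12250, annotated as a pseudogene, stood at 6.2, 8.29, 14.7, 16.7 and 7.18 CPM in the controls and 55.2, 35.8, 39.2, 56.2 and 45.8 CPM in the KO tumors (log2 change 2.11 with SE 0.28, adjusted p = 0.0102 by edgeR), and Tgtp2, a close copy of its neighbour Tgtp1, had 1.99 (SE 0.298, adjusted p = 0.0186 by edgeR). Control replicates 3 and 4 were the highest controls for each of these 4 genes, and still below the lowest KO tumor. The count was 4 to 9 when any 1 library other than control replicate 1 was left out. Without that one 10 were called, beside 36.2% of all genes.

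Promoter sequences are shown for genes that rose, because the 2 elements through which interferons act can be read in them. They are the 250 bases before the RefSeq transcript start (build GRCm38.p6, which is mm10), written 5′ to 3′ on the strand of the gene, with matches in capitals. The response element was searched as GAAA and GAAA with any 2 bases between them or, on the other strand, TTTC and TTTC spaced alike, and the gamma-activated site as TTCNNNGAA, which reads the same on both strands. Matches of the 2 motifs may overlap. The windows searched also held a short stretch after the start, which is not printed. Only genes with a match are shown.
Gbp2b (chr3:142594597-142594846, plus strand): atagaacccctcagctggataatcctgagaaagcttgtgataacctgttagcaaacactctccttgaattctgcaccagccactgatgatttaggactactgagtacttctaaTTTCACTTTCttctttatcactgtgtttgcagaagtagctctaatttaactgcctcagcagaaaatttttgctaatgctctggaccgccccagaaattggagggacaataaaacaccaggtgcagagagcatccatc
Gbp7 (chr3:142530086-142530335, plus strand): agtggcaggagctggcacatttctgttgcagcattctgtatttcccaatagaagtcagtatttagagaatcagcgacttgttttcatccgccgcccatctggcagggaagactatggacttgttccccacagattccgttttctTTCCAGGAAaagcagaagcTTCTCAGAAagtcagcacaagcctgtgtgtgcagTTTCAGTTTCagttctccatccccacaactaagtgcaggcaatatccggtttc
Irgm2 (chr11:58214727-58214976, plus strand): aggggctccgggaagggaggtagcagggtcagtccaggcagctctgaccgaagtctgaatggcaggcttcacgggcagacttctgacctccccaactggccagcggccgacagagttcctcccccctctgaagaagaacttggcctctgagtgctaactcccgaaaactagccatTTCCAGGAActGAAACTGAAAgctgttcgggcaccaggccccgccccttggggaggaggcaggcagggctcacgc
Irf1 (chr11:53769764-53770013, plus strand): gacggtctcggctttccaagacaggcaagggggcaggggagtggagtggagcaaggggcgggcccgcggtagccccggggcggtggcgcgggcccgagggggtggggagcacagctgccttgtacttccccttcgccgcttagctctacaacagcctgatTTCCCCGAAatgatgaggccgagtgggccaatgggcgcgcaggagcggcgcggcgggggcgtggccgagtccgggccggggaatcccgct
Cxcl10 (chr5:92348890-92349139, minus strand): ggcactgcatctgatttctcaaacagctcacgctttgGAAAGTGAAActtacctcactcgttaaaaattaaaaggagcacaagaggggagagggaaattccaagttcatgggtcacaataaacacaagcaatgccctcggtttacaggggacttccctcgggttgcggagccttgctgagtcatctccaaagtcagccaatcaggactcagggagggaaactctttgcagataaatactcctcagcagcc

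In Gbp2b the response element begins 137 bases before the start. In Gbp7 it begins 53 bases before the start, with gamma-activated sites at 106 and 87 bases. In Irgm2 the 2 elements lie side by side, at 75 and 64 bases. Irf1 holds a gamma-activated site at 90 bases and Cxcl10 a response element at 213 bases. Not every gene that rose had a match, and the windows of Cxcl9, Ubd, Acod1 and H2-DMb1 held neither motif. Genes with a match that are not printed also exist. Of the genes that rose, 21 held the response element and 15 the gamma-activated site. RefSeq windows were matched for 57 of the 87 genes that rose, which gave 67 windows. The response element was in 34.3% of these windows, against 3.44% of all 32851 promoter windows of the same length. The gamma-activated site was in 23.9%, against 8.3% of all windows. For the genes that fell, 148 windows of 120 genes held them in 6.08% and 8.78%. These are matches of letters, given as a description.

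Type I interferon genes, which carry the antiviral response, rose in part. Of 22 tested, 4 were called higher (median 0.48), and 20 of 22 fold changes were above 0. Zbp1, a sensor of left-handed nucleic acids that can trigger cell death, stood at 18.9, 24.3, 35.00, 34.7 and 20.01 CPM in the controls and 111, 57.7, 79.8, 105 and 92.5 CPM in the KO tumors (log2 change 1.74 with SE 0.24, adjusted p = 0.0108 by edgeR). Stat2, a subunit of the factor that type I interferons activate, went from 57.2 ± 8.26 to 113 ± 17.6 CPM (log2 change 0.98 with SE 0.16, adjusted p = 0.0216 by edgeR). Oasl2, an oligoadenylate synthetase-like protein, went from 57.9 ± 11.3 to 115 ± 7.64 CPM (log2 change 0.99 with SE 0.16, adjusted p = 0.0207 by edgeR), and Rtp4 had 1.05 (SE 0.19, adjusted p = 0.0321 by edgeR). The classical members Ifit1 (0.35, SE 0.29), Isg15 (0.41, SE 0.23) and Mx1 (0.77, SE 0.28) did not pass, and their groups overlapped. Of the 22, 14 were called higher without control replicate 1 and 11 after loess scaling, beside 36.2% and 1.53% of all genes. The count was 1 to 4 when any 1 other library was left out. None of 14 cytosolic DNA and RNA sensors passed (median 0.11).

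Apolipoprotein L genes also rose in part. These encode intracellular relatives of a lipid-binding plasma protein, and several are induced by interferon. Of 9 tested, 4 were called higher (median 1.29), and the same number was called without any 1 library other than control replicate 1. Apol9b stood at 9.64, 8.73, 10.1, 14.04 and 10.6 CPM in the controls and 27.9, 29.2, 23.5, 28.8 and 30.1 CPM in the KO tumors, with little spread in either group (log2 change 1.39 with SE 0.16, adjusted p = 0.00986 by edgeR). Apol9a, a near-identical copy with reads that may match both genes, went from 21.4 ± 3.8 to 52.4 ± 5.06 CPM (log2 change 1.29 with SE 0.16, adjusted p = 0.00986 by edgeR). Apol6 stood at 9.64, 2.47, 5.14, 7.36 and 2.34 CPM in the controls and 41.3, 29.8, 30.1, 47.7 and 41.4 CPM in the KO tumors (log2 change 2.86 with SE 0.36, adjusted p = 0.0102 by edgeR), and Apol10b had 1.48 (SE 0.23, adjusted p = 0.0201 by edgeR). Control replicate 1 was the highest control for Apol6 and still under every KO tumor. Of 5 Serpina3 genes, a cluster of protease inhibitors, Serpina3f (2.58, SE 0.41, adjusted p = 0.0216 by edgeR) and Serpina3g (2.21, SE 0.44, adjusted p = 0.0463 by edgeR) rose, and 0 to 2 were called when any 1 library other than control replicate 1 was left out.

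**Figure D2:**
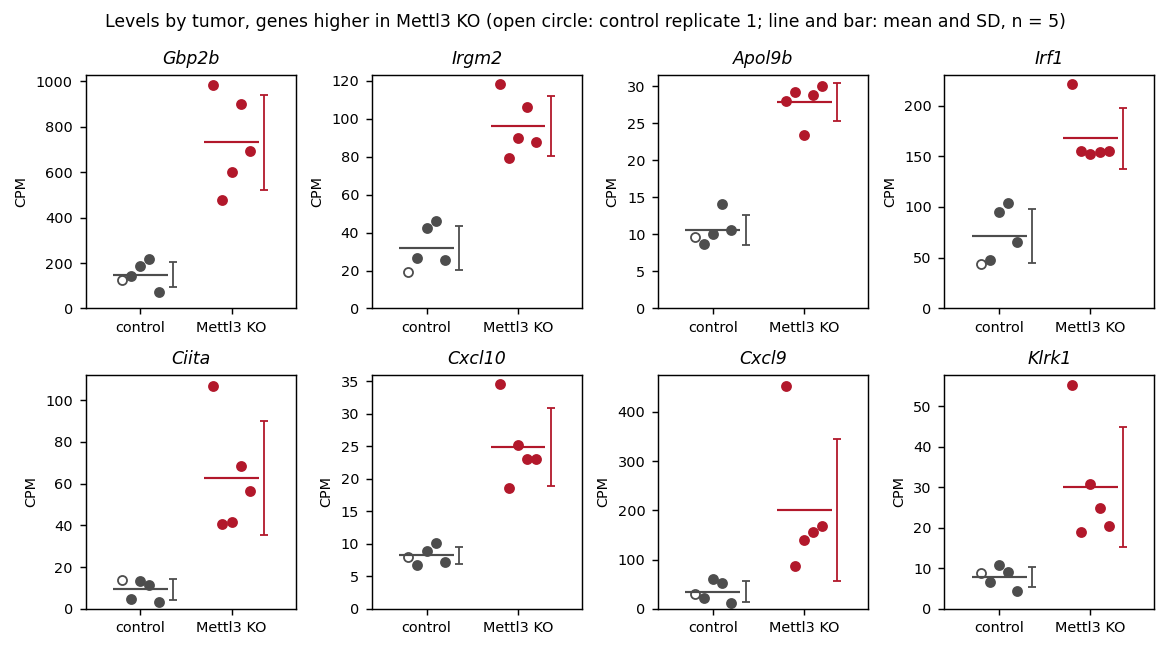
Level in CPM (vertical axis, starting at 0) of 8 genes in each of 5 control and 5 Mettl3 KO tumors, with the mean as a line and the SD as a bar, and control replicate 1 as an open circle. No gene has a KO tumor within the range of the controls, and replicate 1 is the highest KO tumor for 7 of the 8 genes, the exception being Apol9b.

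Among the genes for antigen presentation to helper T cells, RNA of the regulator and of the peptide-exchange proteins was higher. Presentation itself was not measured. Of 12 MHC class II genes, 4 rose and 8 stood above every control in every KO tumor (median log2 fold change 2.25). Ciita, the master activator of the class, stood at 13.9, 4.59, 13.4, 11.2 and 3.3 CPM in the controls and 107, 40.7, 41.5, 68.5 and 56.2 CPM in the KO tumors (log2 change 2.77 with SE 0.42, adjusted p = 0.0194 by edgeR). The peptide-exchange proteins H2-DMa (from 9.82 ± 3.59 to 35.6 ± 15.5 CPM, log2 change 1.84 with SE 0.31, adjusted p = 0.0266 by edgeR), H2-DMb1 (2.65, SE 0.48, adjusted p = 0.0368 by edgeR) and H2-DMb2 (2.02, SE 0.34, adjusted p = 0.0269 by edgeR) rose with it.

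The classical chains varied much more. H2-Ab1 stood at 11.5, 9.53, 81.4, 41.95 and 7.72 CPM in the controls and 608, 112, 118, 195 and 162 CPM in the KO tumors (log2 change 2.97 with SE 0.73, adjusted p = 0.0524 by edgeR), and H2-Aa, H2-Eb1 and Cd74 had 2.51, 2.77 and 2.48 with edgeR adjusted p-values of 0.0554, 0.0547 and 0.0535. Controls 3 and 4 were far above the other controls for these genes, and KO replicate 1 far above the other KO tumors. The list sums were 328, 395, 1041, 662 and 383 CPM in the controls and 4058, 1251, 1148, 1582 and 1420.1 CPM in the KO tumors. The fit without control replicate 1 called 11 of 12 higher, beside 36.2% of all genes. When any 1 other library was left out, 0 to 4 were called. With the share of reads outside genes as a covariate 0 of the 12 were called. CT26 and its host carry the H2-d haplotype while the reads were counted on a C57BL/6 reference, so reads of MHC genes that differ between strains may be missed.

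MHC class I genes, which present peptides to cytotoxic T cells, moved less. Of 11 tested, H2-T24, a non-classical member, rose from 21.1 ± 4.99 to 49.6 ± 15.8 CPM (log2 change 1.22 with SE 0.23, adjusted p = 0.0394 by edgeR). Of the 11, 10 had fold changes above 0 (median 0.40). After loess scaling 6 were called higher (1.53% of all genes were), and 6 without control replicate 1 (36.2% of all genes were). The classical genes H2-K1 (124, 173, 289, 354 and 324 CPM in the controls and 299, 285, 262, 219 and 257 CPM in the KO tumors, log2 fold change 0.063, SE 0.26), H2-D1 (0.06, SE 0.23) and the light chain B2m (-0.022, SE 0.21) overlapped between groups. None of 12 immunoproteasome and peptide-loading genes passed with TMM scaling, and 6 stood above every control in every KO tumor (median 0.73). Tap1, a peptide transporter, stood at 45.3, 43.2, 73.05, 108 and 80.6 CPM in the controls and 164, 158, 136, 129 and 146 CPM in the KO tumors (log2 change 1.06 with SE 0.24, adjusted p = 0.0524 by edgeR), and the proteasome subunit Psmb9 had 1.14 (SE 0.26, adjusted p = 0.0524 by edgeR). After loess scaling 10 of the 12 were called higher, and without control replicate 1, 8 were, beside the shares of all genes given above. The constitutive proteasome, the same machine without the interferon-induced subunits, had a median of -0.53 with 0 of 18 called, and -0.00052 after loess scaling.

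Ubiquitin-like and ADP-ribosylating interferon targets rose in part. Of 14, 4 were called higher and 10 stood above every control in every KO tumor (median 0.58). Ubd, a ubiquitin-like modifier that marks proteins for degradation, stood at 4.13, 1.85, 3.83, 3.31 and 1.38 CPM in the controls and 41.3, 10.6, 15.3, 23.04 and 21.6 CPM in the KO tumors (log2 change 2.96 with SE 0.41, adjusted p = 0.0111 by edgeR). Parp14, an ADP-ribosyltransferase, went from 105 ± 24.7 to 214 ± 44.3 CPM (log2 change 1.02 with SE 0.21, adjusted p = 0.0463 by edgeR). Herc6, the mouse ligase for the modifier Isg15, had 0.88 (SE 0.16, adjusted p = 0.0385 by edgeR) and Trim21, an intracellular antibody receptor, 0.57 (SE 0.12, adjusted p = 0.0484 by edgeR). The count was 1 to 3 when any 1 library other than control replicate 1 was left out. Without that one 11 were called, beside 36.2% of all genes.

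Of 11 enzymes of tryptophan, itaconate and arginine metabolism, 2 rose. Acod1, which makes the antimicrobial metabolite itaconate, stood at 4.65, 4.32, 4.79, 7.78 and 3.14 CPM in the controls and 63.5, 9.93, 22.7, 34.96 and 12.6 CPM in the KO tumors (log2 change 2.51 with SE 0.48, adjusted p = 0.0396 by edgeR). Ido1, which breaks down tryptophan, stood at 4.48, 1.15, 1.48, 2.00 and 0.745 CPM in the controls and 15.01, 4.38, 6.13, 14.1 and 16.1 CPM in the KO tumors (log2 change 2.55 with SE 0.52, adjusted p = 0.0463 by edgeR). It was the only 1 of the 87 higher genes whose groups overlapped, by control replicate 1 against KO replicate 2. Nos2, which makes nitric oxide, stood at 64.9, 9.21, 16.6, 33.8 and 7.54 CPM in the KO tumors against 5.82 to 7.4 CPM in the controls and did not pass (log2 change 1.94 with SE 0.51, adjusted p = 0.0529 by edgeR). Arg1, which breaks down arginine, overlapped between groups (-0.201, SE 0.27).

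The chemokines Cxcl9 and Cxcl10, which attract activated T cells through the receptor Cxcr3, rose. Cxcl10 stood at 7.92, 6.79, 8.97, 10.1 and 7.24 CPM in the controls and 34.6, 18.6, 25.3, 23.04 and 23.1 CPM in the KO tumors (log2 change 1.59 with SE 0.19, adjusted p = 0.00986 by edgeR). Cxcl9 stood at 29.6, 21.4, 60.8, 51.9 and 11.2 CPM in the controls and 453, 86.4, 140.01, 155 and 168 CPM in the KO tumors (log2 change 2.52 with SE 0.52, adjusted p = 0.0465 by edgeR), and KO replicate 1 was far above every other tumor. These were 2 of 12 tested chemokines (median 1.605). When any 1 library other than control replicate 1 was left out, 1 chemokine was called. Cxcl11 (1.49, SE 0.38, adjusted p = 0.0526 by edgeR), Ccl3 (1.88, SE 0.45, adjusted p = 0.0524 by edgeR) and Ccl5 (3.01, SE 0.73, adjusted p = 0.0524 by edgeR) did not pass, while Ccl7 (-0.014) and Ccl12 (-0.73) had values below 0. Of 14 lymphocyte-activating cytokines and their receptors, Tnfsf10, a death ligand also known as TRAIL, rose from 8.53 ± 2.57 to 19.6 ± 5.72 CPM (log2 change 1.19 with SE 0.25, adjusted p = 0.0484 by edgeR), and 0 were called when any 1 library other than control replicate 1 was left out. Il15 had 0.03 (SE 0.16) while its receptor chain Il15ra had 1.04 (SE 0.26, adjusted p = 0.0524 by edgeR). Of 16 genes of lytic cell death, Xaf1, an antagonist of a caspase inhibitor, rose (0.93, SE 0.14, adjusted p = 0.0164 by edgeR).

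Among markers of T cells and of cytotoxic lymphocytes, 1 gene per list rose. Of 17 T cell markers, 1 was called higher. All 17 fold changes were above 0 (median 1.47). Cd8a, which marks cytotoxic T cells, stood at 6.72, 3.88, 11.8, 10.6 and 1.92 CPM in the controls and 35.1, 13.9, 17.9, 33.6 and 13.5 CPM in the KO tumors without passing (log2 change 1.696 with SE 0.46, adjusted p = 0.0544 by edgeR), and Foxp3, which marks regulatory T cells, had 0.28 (SE 0.37). Summed T cell markers were 87.1, 39.3, 70.3, 63.3 and 27.8 CPM in the controls and 295, 102, 134, 179 and 84.9 CPM in the KO tumors. Control replicate 1 was the highest control and exceeded KO replicate 5. No T cell marker was called by edgeR when any 1 library other than control replicate 1 was left out. Without control replicate 1, 16 of 17 were called higher, beside 36.2% of all genes in that fit. The list's median was 1.92 there, and that of all genes at 2 to 5 CPM was 1.665. After loess scaling 2 of the 17 were called higher (median 1.09), beside 1.53% of all genes.

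Of 14 cytotoxic lymphocyte and natural killer cell markers, Klrk1, an activating receptor, stood at 8.78, 6.7, 10.8, 8.99 and 4.31 CPM in the controls and 55.2, 18.9, 30.7, 24.8 and 20.4 CPM in the KO tumors (log2 change 1.92 with SE 0.33, adjusted p = 0.0269 by edgeR). The effector genes Gzmb (0.026, SE 0.301) and Prf1 (-0.25, SE 0.301), which encode the granule proteins that kill target cells, overlapped between groups. The list's median was 1.16, and its sums (99.7 to 151 CPM in the controls, 132 to 307 CPM in KO tumors) overlapped. Of 14 checkpoint receptors and ligands 1 rose (median 0.67), and it was not Pdcd1. Pdcd1, which encodes PD-1, the target of the antibody that the series design names, stood at 3.62, 1.85, 5.49, 5.94 and 1.6 CPM in the controls and 21.5, 9.12, 8.48, 16.9 and 8.78 CPM in the KO tumors and did not pass (log2 change 1.79 with SE 0.42, adjusted p = 0.0524 by edgeR). The groups of Pdcd1 did not overlap, and it was called higher without control replicate 1 (adjusted p = 0.00245) and after loess scaling (adjusted p = 0.0379).

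**Figure D3:**
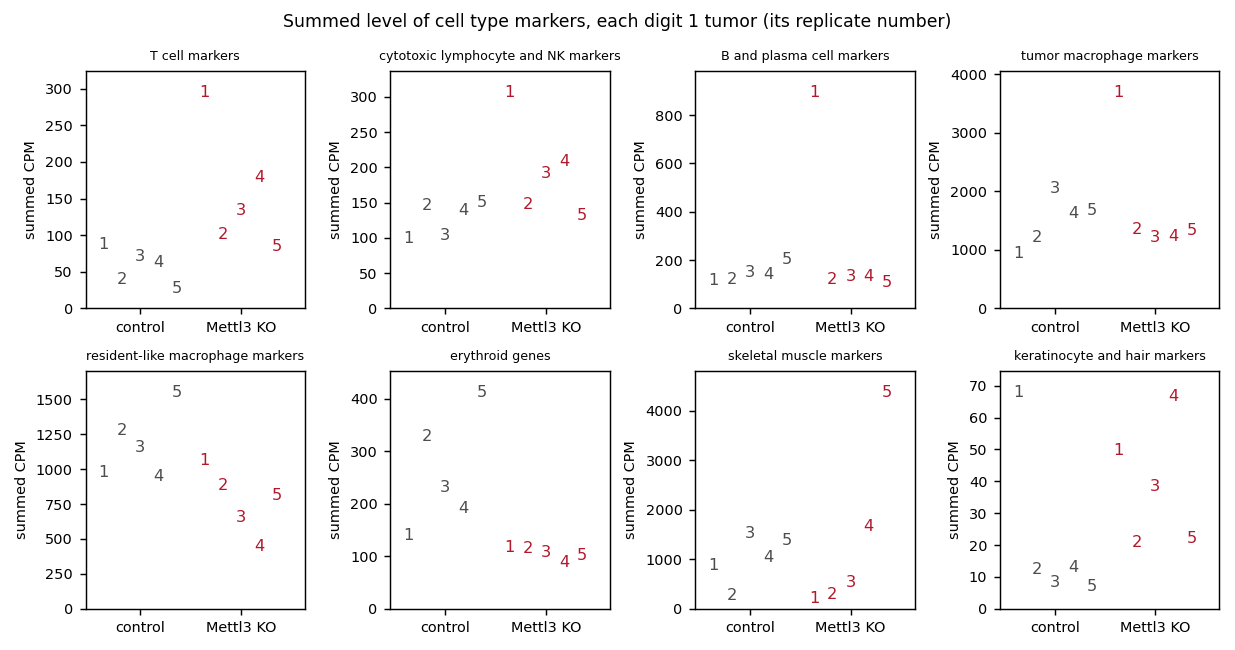
Summed level in CPM of the markers of 8 cell types (vertical axis, starting at 0), each digit being 1 tumor named by its replicate number. KO replicate 1 holds the highest sum for 4 of the 8 lists (T cell, cytotoxic lymphocyte, B and plasma cell and tumor macrophage markers), and the erythroid sums of all KO tumors lie under those of all controls.

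Mettl3 KO replicate 1 stood apart from the other 4 KO tumors in its immune markers. Its summed B and plasma cell markers were 894 CPM against 107 to 134 CPM in the other KO tumors and 114 to 202 CPM in the controls. Its summed tumor macrophage markers were 3696 CPM against 1207 to 1346 CPM, and its summed MHC class II genes 4058 CPM against 1148 to 1582 CPM. Igkc, an antibody light chain, stood at 404, 7.78, 5.41, 4.17 and 1.46 CPM in the KO tumors and 0.522 to 1.55 CPM in the controls. Without this library 56 genes changed (0.246% of genes tested), 50 higher (0.22%) and 6 lower (0.0264%), and 9 of the 11 guanylate-binding proteins were among those called higher. None of 10 B and plasma cell markers, 13 dendritic cell markers, 16 tumor macrophage markers, 8 neutrophil markers or 9 mast cell, basophil and eosinophil markers changed with 10 libraries. In the fit without control replicate 1, 8, 10, 4, 4 and 7 of them, in that order, were called higher, beside 36.2% of all genes. There 1 B and plasma cell marker and 1 dendritic cell marker were called lower, beside 15.4% of all genes.

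Markers of resident-like macrophages were among the genes that fell. These cells are the perivascular and tissue-dwelling macrophages that scavenge and repair, in contrast to the tumor macrophages above. Of 16 tested, 3 fell. Cd163, a scavenger receptor for hemoglobin, stood at 47.5, 42.96, 29.2, 28.8 and 46.03 CPM in the controls and 12.9, 12.3, 16.2, 10.5 and 16.4 CPM in the KO tumors (log2 change -1.499 with SE 0.199, adjusted p = 0.0102 by edgeR). F13a1, a clotting factor subunit that these cells make, stood at 131, 217, 108, 90.9 and 194 CPM in the controls and 26.1, 54.5, 44.2, 25.03 and 58.3 CPM in the KO tumors (log2 change -1.82 with SE 0.31, adjusted p = 0.0275 by edgeR). Lyve1, a hyaluronan receptor of these macrophages and of lymphatic vessels, stood at 30.8, 45.4, 14.2, 25.6 and 42.4 CPM in the controls and 3.23, 13.2, 5.77, 4.57 and 8.22 CPM in the KO tumors (log2 change -2.12 with SE 0.39, adjusted p = 0.0368 by edgeR). For all 3, even the lowest control was above the highest KO tumor.

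The fall was not shared by the whole list. Its median was -0.085, beside -0.14 over all genes. Mrc1, a mannose receptor, had -0.899 (SE 0.28, adjusted p = 0.0636 by edgeR) with groups that did not overlap, Folr2 had -0.081 (SE 0.37), and Timd4, a receptor for dying cells, had 1.81 (SE 0.45, adjusted p = 0.0524 by edgeR). The pan-macrophage genes Cd68 (0.066, SE 0.26) and C1qa (0.048, SE 0.28) overlapped between groups. After loess scaling Cd163 and F13a1 were still called lower (adjusted p = 0.041 and 0.0286), and Lyve1 was not (-1.78, adjusted p = 0.0655). Without control replicate 1 their log2 fold changes were -1.21, -1.65 and -1.91, all called lower. Leaving out any 1 other library gave 0 to 3 called. Of 6 lymphatic endothelial markers only Lyve1 fell, and none of 13 blood endothelial markers did.

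Hemoglobin genes, which mark red blood cells and their precursors, were lower in every KO tumor. Hbb-bs, a beta chain, stood at 33.4, 120.4, 50.4, 59.5 and 184 CPM in the controls and 17.1, 23.9, 10.5, 7.35 and 13.6 CPM in the KO tumors (log2 change -2.62 with SE 0.47, adjusted p = 0.0349 by edgeR). Hba-a1, an alpha chain, went from 24.2 ± 17.2 to 5.3 ± 2.28 CPM (log2 change -2.16 with SE 0.44, adjusted p = 0.0463 by edgeR). Hbb-bt, a scarcer beta chain, had -2.74 (SE 0.59, adjusted p = 0.0485 by edgeR). These are 3 of 9 erythroid genes, and reads that match both paired copies may go uncounted. Summed erythroid genes were 140.2, 328, 231, 192 and 412 CPM in the controls and 116, 115, 106, 87.4 and 102 CPM in the KO tumors, so the controls varied widely among themselves and the KO tumors little. The nuclear and surface markers of red cell precursors Gata1 (1.03), Epor (0.19) and Slc4a1 (0.84) did not pass. They were the only 3 of the 9 with fold changes above 0, and the other 6, hemoglobin genes included, had values below 0. At most 1 erythroid gene was called when any 1 library other than control replicate 1 was left out. Without that one, 6 were called lower and 2 higher, beside 15.4% and 36.2% of all genes.

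**Figure D4:**
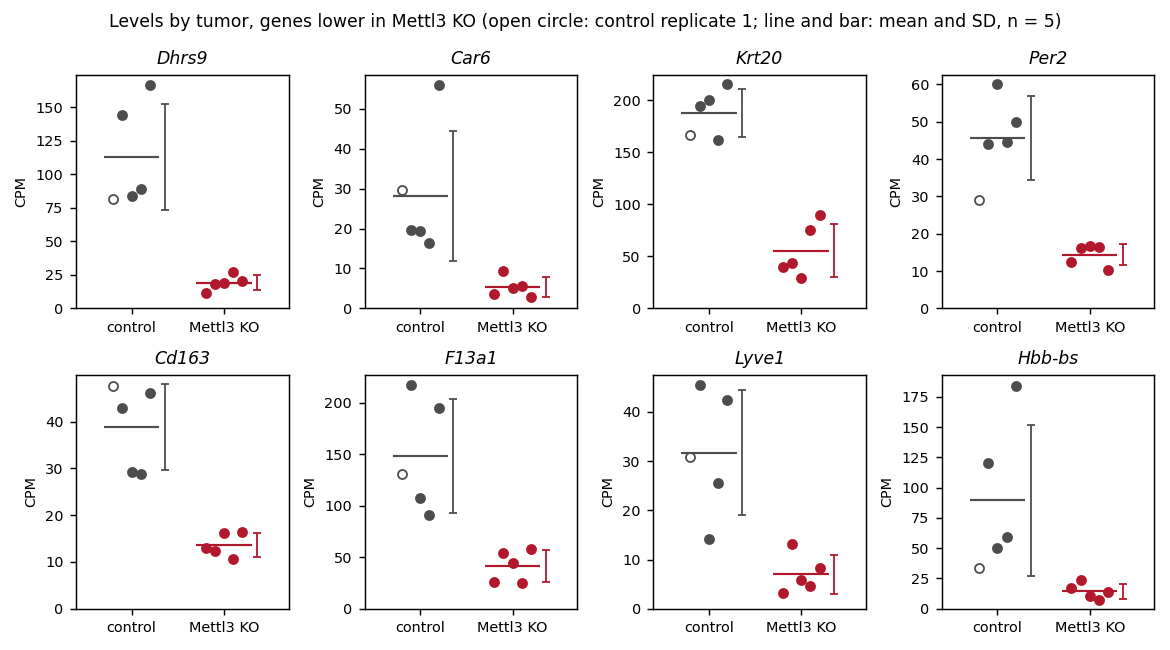
Level in CPM (vertical axis, starting at 0) of 8 genes that fell, in each of 5 control and 5 Mettl3 KO tumors, with the mean as a line and the SD as a bar, and control replicate 1 as an open circle. Every KO tumor lies under every control for each of the 8 genes, the open circle included.

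Retinoid genes, whose enzymes turn vitamin A into its active acid, fell at 2 of 16 tested members (median -0.32). Dhrs9, a retinol dehydrogenase, stood at 81.6, 145, 83.8, 89.5 and 167 CPM in the controls and 11.3, 18.2, 19.3, 27.2 and 20.5 CPM in the KO tumors (log2 change -2.55 with SE 0.28, adjusted p = 0.00986 by edgeR). Rdh10, which catalyses the first oxidation step, stood at 63.03, 97.9, 125, 71.6 and 89.2 CPM in the controls and 18.2, 50.4, 41.5, 29.4 and 40.8 CPM in the KO tumors (log2 change -1.299 with SE 0.27, adjusted p = 0.0465 by edgeR). Both were also called lower after loess scaling (-2.11 and -0.84, adjusted p = 0.00157 and 0.0407) and without control replicate 1 (-2.43 and -1.196). The other 14 tested genes of the list did not pass, among them Aldh1a1 (0.84), Aldh1a2 (1.08) and Aldh1a3 (0.83), which make the acid, and the receptors Rara (-0.057) and Rarg (-0.31). The count was 1 when any 1 library other than control replicate 1 was left out.

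Of the epithelial genes, Epcam and Cdh1 were scarce in these tumors. The summed level of the whole epithelial list was 446.0 to 578.1 CPM in the controls and 226.5 to 356.8 CPM in the KO tumors, Krt20 included. Epcam, a surface adhesion protein, stood at 0.435 to 4.31 CPM in the controls and 0.984 to 6.23 CPM in the KO tumors, and Cdh1, the epithelial cadherin, at 1.92 to 9.82 and 2.14 to 10.4 CPM. Krt20, an intestinal keratin, stood at 166, 195, 201, 161 and 215 CPM in the controls and 39.7, 43.6, 29.1, 75.5 and 89.5 CPM in the KO tumors (log2 change -1.76 with SE 0.28, adjusted p = 0.0217 by edgeR). It was the only 1 of 14 epithelial genes that changed, with -1.37 after loess scaling (adjusted p = 0.014) and -1.59 without control replicate 1. Krt20 was no longer called with the share of reads outside genes as a covariate (adjusted p = 0.0568 by edgeR) or without Mettl3 KO replicate 1 (adjusted p = 0.0758 by edgeR), and 0 or 1 epithelial gene was called when any 1 library other than control replicate 1 was left out. The tight junction genes Cldn9 (-2.04, SE 0.39, adjusted p = 0.0394 by edgeR) and Cldn6 (-1.72, SE 0.35, adjusted p = 0.0465 by edgeR) also fell, from 10.5 ± 5.93 to 2.56 ± 0.758 CPM and from 24.7 ± 10.7 to 7.43 ± 3.79 CPM. Car6, a secreted carbonic anhydrase, stood at 29.6, 19.6, 19.3, 16.4 and 55.9 CPM in the controls and 3.69, 9.3, 5.23, 5.56 and 2.81 CPM in the KO tumors (log2 change -2.38 with SE 0.402, adjusted p = 0.0266 by edgeR), the only 1 of 12 carbonic anhydrases to change, with 0 or 1 called when any 1 library other than control replicate 1 was left out. Ccnb1ip1, a ubiquitin ligase of meiosis and the cell cycle, fell from 6.81 ± 2.64 to 2.00 ± 0.472 CPM (log2 change -1.76 with SE 0.35, adjusted p = 0.0455 by edgeR).

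The clock repressors Per2, Cry1 and Cry2 fell. In this oscillator Arntl and Clock bind E-boxes and drive the Per and Cry genes, whose products shut them off. Per2 stood at 29.1, 43.9, 60.2, 44.7 and 49.9 CPM in the controls and 12.5, 16.3, 16.8, 16.5 and 10.2 CPM in the KO tumors (log2 change -1.66 with SE 0.21, adjusted p = 0.0102 by edgeR). Cry1 stood at 8.78, 18.8, 24.8, 14.1 and 17.7 CPM in the controls and 7.85, 5.9, 7.4, 7.95 and 5.18 CPM in the KO tumors (log2 change -1.31 with SE 0.26, adjusted p = 0.044 by edgeR), so control replicate 1 was the control nearest to the KO tumors. Cry2 went from 32.7 ± 6.48 to 16.9 ± 4.61 CPM (log2 change -0.95 with SE 0.204, adjusted p = 0.0485 by edgeR). These were 3 of 19 clock genes (median -0.72, and -0.33 after loess scaling).

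Other output genes of the clock had values in the same direction without passing. Nr1d2 had -1.15 (SE 0.28, adjusted p = 0.0524 by edgeR), Tef -1.24 (SE 0.36), Dbp -1.203 (SE 0.404) and Per3 -1.06 (SE 0.34). For Dbp the KO tumors stood at 5.77, 26.3, 12.6, 6.95 and 5.4 CPM, and replicate 2 was inside the control range of 17.9 to 33.9 CPM. The activator Arntl had 0.36 (SE 0.23). Without control replicate 1, 8 clock genes were called lower and 4 higher, beside 15.4% and 36.2% of all genes. Leaving out any 1 other library gave 1 to 4 called lower, with 1 called without Mettl3 KO replicate 1, and the fit with the share of reads outside genes as a covariate gave 1. After loess scaling Per2 (-1.31, adjusted p = 0.00304) and Cry1 (-1.16, adjusted p = 0.0435) remained lower and Cry2 did not pass. The sources used here give no time of day for tumor collection.

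The promoter of Cry1 is shown because the clock acts through the E-box, searched as CACGTG, which reads the same on both strands.
Cry1 (chr10:85185055-85185304, minus strand): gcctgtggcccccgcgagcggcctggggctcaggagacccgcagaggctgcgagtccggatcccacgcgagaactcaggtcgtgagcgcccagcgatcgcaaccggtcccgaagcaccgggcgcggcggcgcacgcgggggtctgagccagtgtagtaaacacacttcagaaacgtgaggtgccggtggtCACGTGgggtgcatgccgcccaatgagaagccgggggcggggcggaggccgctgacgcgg

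The match, in capitals, begins 60 bases before the transcript start. Of 21 windows of 16 matched clock genes, 28.6% held the motif, against 7.15% of all windows, 8.78% of the windows of genes tested and 12.8% of the 148 windows of genes that fell. The 1 window of Cry2 held no match.

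Targets of p53, the DNA damage factor, fell at 2 of 17 tested genes (median -0.69). Zmat3, an RNA-binding protein, stood at 45.8, 62.1, 76.7, 83.4 and 77.8 CPM in the controls and 30.7, 40.9, 30.5, 33.4 and 29.8 CPM in the KO tumors (log2 change -1.07 with SE 0.18, adjusted p = 0.0266 by edgeR). Eda2r, a receptor of the tumor necrosis factor family, went from 40.1 ± 9.45 to 19.3 ± 2.35 CPM (log2 change -1.05 with SE 0.18, adjusted p = 0.0271 by edgeR). Both were also called lower after loess scaling (-0.62 and -0.64). The best-known targets Cdkn1a (-0.75, adjusted p = 0.0835 by edgeR) and Mdm2 (-0.42, adjusted p = 0.0961 by edgeR) did not pass. Of 16 chaperones and other genes of the unfolded protein response, Dnajb9 fell from 39.5 ± 13.4 to 16.01 ± 2.63 CPM (log2 change -1.303 with SE 0.23, adjusted p = 0.0321 by edgeR), all 16 fold changes were below 0 (median -0.64), and the median was -0.13 after loess scaling. All 18 genes of the Atf4 amino acid response also had negative fold changes with none called (median -0.704, and -0.22 after loess scaling). When any 1 library other than control replicate 1 was left out, 0 or 1 p53 target and 0 genes of the unfolded protein response were called.

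Genes of the translation machinery had negative fold changes almost throughout. Of 26 cytosolic ribosomal protein genes, Rpl5 fell from 487, 1053, 956, 694 and 911 CPM in the controls to 262, 469, 396, 365 and 366 CPM in the KO tumors (log2 change -1.14 with SE 0.24, adjusted p = 0.0465 by edgeR). All 26 fold changes were below 0 (median -0.93, and -0.29 after loess scaling), and 25 were called lower without control replicate 1, beside 15.4% of all genes. Of 12 mitochondrially encoded genes, the 2 ribosomal RNAs fell. mt-Rnr1 stood at 5295, 16860.0, 18581, 6850.0 and 5309 CPM in the controls and 1536, 2449, 2069, 1232 and 1659 CPM in the KO tumors (log2 change -2.56 with SE 0.42, adjusted p = 0.0236 by edgeR), and mt-Rnr2 went from 34471 ± 14918 to 9984 ± 2720.0 CPM (log2 change -1.79 with SE 0.34, adjusted p = 0.0397 by edgeR). After loess scaling mt-Rnr1 was called lower (-1.64, adjusted p = 0.0118) and mt-Rnr2 was not.

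Small nucleolar RNAs, which guide modification of ribosomal RNA, had the lowest median of all the lists. Of 59 tested, 58 had negative fold changes (median -1.63, and -1.89 after loess scaling) and 2 fell, Snora57 (-2.100, SE 0.36, adjusted p = 0.029 by edgeR) and Gm25788 (-2.52, SE 0.39, adjusted p = 0.02 by edgeR). Snora57 stood at 5.17, 19.2, 22.6, 18.4 and 18.1 CPM in the controls and 3.69, 3.85, 4.87, 1.99 and 4.95 CPM in the KO tumors, so control replicate 1 was close to the KO range. Of 17 small nuclear RNAs, 4 fell (Gm24407, Gm24265, Gm26316 and Gm25939, with log2 fold changes from -2.68 to -1.72), and all 17 had negative fold changes. Summed small nucleolar RNAs stood at 391, 1349, 1936, 635 and 736 CPM in the controls and 289, 370.0, 302, 281 and 426 CPM in the KO tumors. These RNAs are mostly not polyadenylated, so their reads also depend on how RNA was selected, and both a depletion of ribosomal RNA and an isolation of poly(A) RNA appear in the protocols. The part of that step in the difference was not tested. When any 1 library other than control replicate 1 was left out, 0 ribosomal protein genes, 0 or 1 mitochondrially encoded gene and 0 or 1 small nucleolar RNA were called.

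The remaining lists held few or no changed genes. Of 20 hypoxia and glycolysis genes, Pfkfb3, which sets the pace of glycolysis, rose from 21.6 ± 4.81 to 44.8 ± 11.01 CPM (log2 change 1.05 with SE 0.201, adjusted p = 0.0396 by edgeR). None of 23 cell cycle genes passed (median -0.36, and 0.102 after loess scaling), none of 15 NF-kB targets (median -0.12), none of 19 TGF-beta and mesenchymal genes (median -0.44) and none of 15 fibroblast and pericyte markers (median 0.015). Skeletal muscle markers ranged from 216 to 4373 CPM in summed level among KO tumors and from 276 to 1527 CPM among controls, with none of 14 called. Summed keratinocyte and hair markers were 67.8 CPM in control replicate 1, 6.97 to 12.9 CPM in the other controls and 20.8 to 66.7 CPM in KO tumors. None of these markers was called with 10 libraries, and 8 of 9 were called higher without control replicate 1, beside 36.2% of all genes. Their part in the other results was not tested.

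The counts by list were also taken with the share of reads outside genes as a covariate. Among rises, 7 guanylate-binding proteins, 5 immunity-related GTPases, 4 type I interferon genes, 4 apolipoprotein L genes and 2 genes of the interferon-gamma receptor chain were called, and so were 3 immunoproteasome and peptide-loading genes, none of which passed without the covariate. The MHC class I, chemokine, ubiquitin-like and ADP-ribosylating, and lytic cell death lists had 1 each. None was called among the MHC class II, Serpina3, tryptophan, itaconate and arginine enzyme, T cell, cytotoxic lymphocyte, checkpoint, lymphocyte cytokine and hypoxia lists. Among falls, 2 small nucleolar RNAs and 1 each of the clock, retinoid, resident-like macrophage and mitochondrially encoded genes were called, with Dhrs9 and Cd163 among them (adjusted p = 0.00845 by edgeR for both). None was called among the erythroid, p53, epithelial, carbonic anhydrase, unfolded protein response, ribosomal protein and lymphatic lists.

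**Figure D5:**
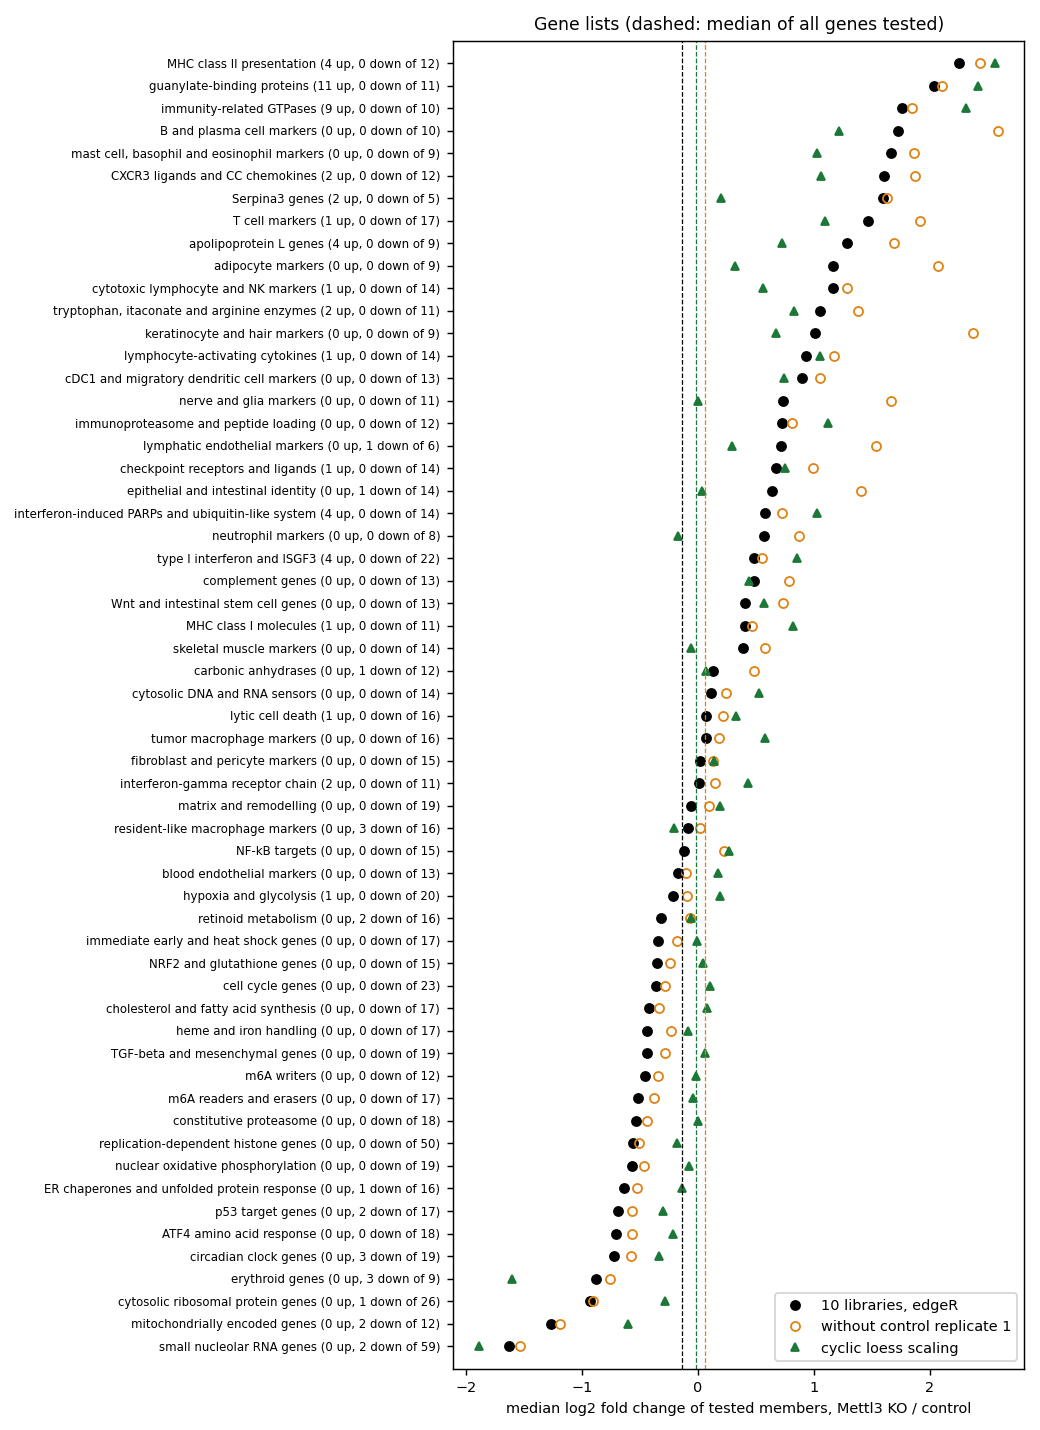
Median log2 fold change of Mettl3 KO over control (horizontal axis) of the tested members of 58 gene lists, with 10 libraries (black), without control replicate 1 (open circles) and after loess scaling (triangles); the dashed lines are the medians over all genes tested. MHC class II genes, guanylate-binding proteins and immunity-related GTPases have the highest medians with 10 libraries (2.25, 2.04 and 1.76), and small nucleolar RNAs have the lowest in all 3 fits.

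Of the 87 genes that rose, 51 were in a list and 36 in none, and of the 179 that fell, 21 were in a list and 158 in none. Outside the lists, the larger rises by the rule for named genes were Calhm6, a calcium channel gene of macrophages that stood at 1.38, 0.618, 0.958, 1.1 and 0.479 CPM in the controls and 21.2, 2.95, 4.15, 3.97 and 3.94 CPM in the KO tumors (log2 change 2.995 with SE 0.63, adjusted p = 0.048 by edgeR), and Slamf8, a surface protein of macrophages that stood at 5.34, 2.12, 6.44, 3.84 and 1.12 CPM in the controls and 36.7, 10.02, 11.5, 19.5 and 18.8 CPM in the KO tumors (log2 change 2.37 with SE 0.48, adjusted p = 0.0463 by edgeR). Calhm6 did not pass after loess scaling (1.59, adjusted p = 0.0772), and KO replicate 1 was far above the other 4 KO tumors. Slamf8 did pass (2.496, adjusted p = 0.0163).

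The series also holds 5 tumors with a guide RNA against Mettl14, the partner protein, and the 2 knockouts were compared in a fit of all 15 RNA-seq libraries. No gene differed among 24566 (edgeR, 0.0% called), and 3152 had an unadjusted p under 0.05 (12.8%). The same count of 0 was found with the 10 KO libraries alone. Gbp7 differed by -0.17 (Mettl3 KO minus Mettl14 KO, SE 0.303), Irf1 by -0.41 (SE 0.35) and Ciita by 0.039 (SE 0.52). Larger differences were estimated for Cd163 (-1.35, SE 0.24), Dhrs9 (-1.08, SE 0.37) and mt-Rnr1 (-1.696, SE 0.41), none of them past adjustment. A p that misses the threshold does not show that the knockouts act alike. The Mettl14 tumors were grouped by their titles, since their genotype field reads Mettl4.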

How the data were processed

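RNA-seq libraries of 5 Mettl3 knockout and 5 control tumors were analysed, with the 5 Mettl14 knockout libraries for 1 comparison. The 12 methylated RNA immunoprecipitation and input samples were not analysed here. Groups came from the sample titles. Single reads of 75 nucleotides were sequenced, per the labels' protocols. The authors deposited whole-number read counts per Ensembl gene, made with cutadapt 1.18, HISAT2 2.1.0 and HTSeq 0.11.2 on mm10, per the submitters' processing notes. The sources used here do not state the annotation release or strand setting, so reads of overlapping or antisense genes cannot be told apart. The closing lines, for reads assigned to no gene, held 56.8% to 86.2% of each library and entered neither library sizes nor tests. The table held 0 unused sample columns. Of 54752 IDs, 54723 matched GENCODE M21.

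The main test was edgeR 4.0.16 in R 4.3.3 (quasi-likelihood, robust, TMM scaling, filterByExpr with a minimum count of 10, Benjamini-Hochberg threshold 0.05). Standard errors were derived from the F statistic. Levels are mean ± SD with n = 5. Library measures were compared by two-sided exact permutation with SciPy 1.17.1, over 252 splits for 5 against 5 libraries and fewer without control replicate 1. Alternatives were other scalings (RLE, library totals), other filters (none, a mean of at least 1 CPM), DESeq2 1.42.0, limma 3.58.1 voom, voom with cyclic loess (which changes both the scaling and the test), counts thinned to 4354273 per library, the share of reads outside genes as a covariate, all 15 libraries, a replicate block, and each library left out. On simulated counts for this comparison (20638 genes), the test recovered 16.1% of 93 genes changed by a log2 fold of 1 and 57.3% of 89 changed by 2, with 1 false call. The simulated libraries held no shift with abundance and no control unlike the others, both of which the real libraries show. These rates therefore do not measure the error of the test on the real libraries. All replicates of a group differed by more than sampling noise.

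The comparison and the 58 gene lists were chosen with earlier results of these data known, so list counts are descriptions. The named genes were Mettl3, Mettl14, the 12 largest rises and 12 largest falls among protein-coding genes past the threshold with non-overlapping groups, and up to 4 genes per list by adjusted p. Other genes are named as members of a list, chosen after their values were seen. A few genes taken by this rule are not reported here. Promoters came from RefSeq (GRCm38.p6).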

Additional observations from a re-analysis of the deposited data

Results flagged for a closer look

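Levels of the named genes and 4 library measures were examined for a sample far from the others of its group, by the gap to its nearest neighbour over the group's range (above 0.71 for 5 samples). Of 258 groups examined, 24 met this, and chance gives about 1 in 20. Of the 24, 11 came from Mettl3 KO replicate 1 and 9 from control replicate 1.

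Mettl3 KO replicate 1 stood far above the other KO tumors for Calhm6 at 21.2 CPM (2.95 to 4.15 in the other KO tumors), Cxcl9 at 453 CPM (86.4 to 168), Irf1 at 222 CPM (152 to 155) and H2-T24 at 77.1 CPM (37.9 to 47.6). The antibody genes Igkc and Ighm stood in this tumor at 404 CPM (1.46 to 7.78) and 199.7 CPM (15.2 to 23.5), Irf8 at 97.9 CPM (42.6 to 52.9), the Fc receptor Fcgr1 at 66.9 CPM (29.9 to 39.2) and the mast cell protease Cma1 at 17.1 CPM (5.05 to 8.23). The adhesion gene Icam1 stood at 45.7 CPM (14.4 to 22.8) and the adipocyte gene Cfd at 13.6 CPM (0.715 to 3.77). Without this library, 50 genes were called higher and 6 lower.

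Control replicate 1 was the highest control for the skin genes Sbsn (3.96 CPM, 0.585 to 0.970 in the other controls) and Krt14 (3.62 CPM, 0.261 to 0.631) and the glial genes Mbp (7.06 CPM, 3.39 to 4.23) and Gfap (3.96 CPM, 0.261 to 0.882). It was also highest in the share of reads outside genes (78.6%, 44.3% to 53.8%) and in summed receptor genes (5338 CPM, 199 to 702 CPM). It was the lowest control for Rbm15 (103 CPM, 187 to 217), the RNA-binding gene Elavl1 (79.9 CPM, 127 to 144) and Snora57 (5.17 CPM, 18.1 to 22.6). Single genes stood apart in 4 other tumors, Hbb-bt in control replicate 5 (16.1 CPM, 1.89 to 5.21), the complement gene C1ra in control replicate 3 (36.3 CPM, 16.7 to 21.9), Hba-a1 in Mettl3 KO replicate 2 (9.21 CPM, 3.61 to 5.07) and Cldn6 in Mettl3 KO replicate 5 (14.1 CPM, 5.01 to 6.86).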

How the results depend on the processing

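Over the alternatives, the named genes gave 1882 values with the same direction and call, 206 that newly passed, 523 that no longer passed and 5 that reversed. The number of changed genes was 3379 with DESeq2 (184 higher, 3195 lower), 5031 with voom (2406, 2625), 442 with cyclic loess (327, 115), 299 with thinned counts (159, 140), 122 with library totals (106, 16), 100 with RLE scaling (72, 28), 81 with a mean of at least 1 CPM (68, 13), 62 without a filter (32, 30), 55 with the share outside genes as a covariate (38, 17) and 42 with all 15 libraries (17, 25). Leaving out 1 library gave 35 to 11625, with 31 to 8162 higher and 4 to 3463 lower. The largest counts came without control replicate 1, and the other 9 libraries gave 35 to 65. The cause was not tested. After cyclic loess the sign reversed for Mettl14 (0.074), G0s2 (-0.26), Myl1 (-0.079, and -0.013 with voom) and Mb (-0.51), none of them called with 10 libraries. Without control replicate 1 the difference between groups was larger in reads on genes (-9.78 M, adjusted exact permutation p = 0.0159). It was also larger in reads outside genes (19.4 percentage points) and receptor genes (2378 CPM). Every library measure had this same adjusted p in that test, the smallest that so few libraries can give. The comparison of the 2 knockouts gave 0 to 1 gene when 1 library was left out, the 1 without Mettl3 KO replicate 2. The replicate block gave 6002 changed genes (1891 higher, 4111 lower). Same-numbered tumors had correlated deviations of 0.617, 0.023, -0.246, -0.197 and 0.588. Differently numbered ones ranged from -0.776 (control replicate 1 with Mettl3 KO replicate 2) to 0.764 (control replicate 1 with Mettl3 KO replicate 4). These values cannot show whether the numbers pair the samples, and the labels do not say.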

Other observations

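Several genes outside the lists changed and are given as values, chosen after their values were seen. Fkbp5, Tsc22d3 and Klf9 had log2 fold changes of -1.36, -1.48 and -1.02 (adjusted p = 0.0465, 0.0478 and 0.0375 by edgeR). Tsc22d3 stood at 113, 85.3, 109, 122 and 218 CPM in the controls and 30.01, 68.4, 27.6, 47.3 and 58.8 CPM in the Mettl3 KO tumors. After loess scaling the 3 values were -0.88, -0.98 and -0.57 (adjusted p = 0.0164, 0.0651 and 0.0697). Gas5, a long non-coding RNA that hosts small nucleolar RNAs, went from 383 ± 92.02 to 184 ± 50.9 CPM (log2 change -1.06 with SE 0.23, adjusted p = 0.0498 by edgeR). Spp1, the secreted matrix protein osteopontin, stood at 3388, 6837, 6137, 4662 and 7458 CPM in the controls and 1684, 2542, 2335, 2969.9 and 2483 CPM in the KO tumors (log2 change -1.25 with SE 0.26, adjusted p = 0.0465 by edgeR).

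Among rises outside the lists, Fgl2, a secreted fibrinogen-like protein, stood at 22.2, 29.7, 45.8, 43.2 and 22.9 CPM in the controls and 261, 63.7, 101, 104 and 68.8 CPM in the KO tumors (log2 change 1.86 with SE 0.39, adjusted p = 0.048 by edgeR). Batf2, a transcription factor of activated macrophages, went from 10.6 ± 3.88 to 28.8 ± 5.32 CPM (log2 change 1.43 with SE 0.24, adjusted p = 0.0266 by edgeR), and Ly6a, a surface protein of stem cells and activated lymphocytes, from 34.2 ± 14.95 to 114 ± 38.6 CPM (log2 change 1.73 with SE 0.32, adjusted p = 0.0385 by edgeR). The 3 genes had 1.94, 1.59 and 1.74 without control replicate 1.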
